A study of Mus musculus with 4 samples.

Results

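The heat shock proteins described here are 10 chaperones and co-chaperones of the cytosol and the mitochondrial matrix, measured as mRNA in mouse kidney at day 3 after ischemia-reperfusion (I/R) injury. Members were taken by gene name from the expression table, which lists 54078 features. All 10 names were present. All 10 passed the filter on low values, a mean of at least 0.5 FPKM, which left 15414 genes for testing. An FPKM value here is the reads of a gene divided by its length and by a constant for each library. These constants did not follow the reads on genes of the pools. The 10 members are Hspa1a, Hspa1b, Hspa8, Hsph1, Hspb1, Hsp90aa1, Dnajb1, Bag3, Hspd1 and Hspe1.

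Heat shock proteins bind unfolded or partly folded proteins and keep them from aggregating. HSP70 proteins work in cycles of ATP hydrolysis, in which J proteins load the substrate, nucleotide exchange factors release it, and HSP90 takes over some of the clients. In the mitochondrial matrix the HSP60 chaperonin and its HSP10 lid enclose imported proteins while they fold. The inducible genes of this group are driven by heat shock factor 1 (HSF1), which binds arrays of inverted GAA units called heat shock elements, and the response is well known in kidney tubules after loss and return of blood flow.

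The WT group consisted of male Apela flox/flox littermates without Cre, and the Apela Ksp KO group of male mice in which Apela, the gene of the peptide hormone ELABELA, was deleted by Cre recombinase driven by the Ksp-cadherin promoter in renal tubules. Every mouse of both groups was an adult that had both renal pedicles clamped for 30 min and was killed at day 3. Libraries from uninjured or sham-operated mice were not analysed here, so each comparison is between injured kidneys and none measures the effect of injury. Each library was a pool of RNA from 3 mice, with 2 pools per group, and the values therefore carry no spread between single animals. The strain was given as C57BL/6 x 129S4/SvJae in the labels and as C57BL/6 in the methods.

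The series text names adipose tissue as the source, while the labels and the methods name the kidney. The 8 kidney tubule markers summed to between 2150 and 2851 FPKM per pool. Their KO pools were lower for 3 (Lrp2, Slc34a1 and Cdh16) and higher for 0, beside 18.1% and 19.7% of all genes tested. Slc34a1, of the proximal tubule, stood at 898 and 689 FPKM in WT and at 365 and 609 FPKM in KO. The part of tubule cell content in the heat shock values was not tested. Adipoq was listed at 0 in every pool but KO replicate 2, at 0.268 FPKM, and Ucp1 was listed at 0 in all 4 pools, while Cidec, a lipid droplet gene of adipocytes, stood at 1.37 and 0.282 FPKM in the WT pools and at 7.92 and 2.79 FPKM in the KO pools. Of the other adipose markers, Fabp4, which endothelial cells also express, stood at 10.2 to 14.6 FPKM, Plin1 at 0.0535 and 0.0125 FPKM in WT and at 0.347 and 0.119 FPKM in KO, and Lep did not exceed 0.0184 FPKM. The part of adipose tissue in the values below was not tested. Reads on genes numbered from 16045724 to 16927742 per pool. The targeted gene, Apela, stood at 5.27 and 4.57 FPKM in the WT pools and at 0.536 and 0.245 FPKM in the KO pools, as the labels state. The recovered reads of WT replicates 1 and 2 differed far beyond counting noise (chi-square of 31.5 per degree of freedom), as did those of KO replicates 1 and 2 (24.5), so each pool was counted as 1 sample.

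Inverted GAA units, the parts of heat shock elements, were searched in the promoters of the members. Stretches from 6 genes are shown because a pair of such units is what they have in common. Of the 6, only Hsph1 and Hspe1 hold an array of 3 units. Promoter windows of 300 bases, from 250 bases before to 50 bases after an annotated start, came from RefSeq on GRCm38.p6 and matched 8 of the 10 members in 11 windows. Hspa8 and Hsp90aa1 had no entry among the windows used here. A pair of inverted units, GAANNTTC or TTCNNGAA, was found in 7 of the 8 members against 15.1% of all 32817 windows, and an array of 3 units (GAANNTTCNNGAA or TTCNNGAANNTTC) in 3 of them against 0.603%. Both strands were covered, since each pair is its own reverse complement and the arrays are each other's. A pair lies inside every array, so these counts overlap, as can the windows of one gene. The member counts are per gene and the percentages per window, so they are not like for like. Hspd1 and Hspe1 were counted separately for the array they share, and Hspa1a and Hspa1b for nearly identical promoters. Dnajb1 had no match to these letters in its window. In the sequences that follow, written 5′ to 3′ on the strand of the gene, capitals mark the GAA and TTC units.
Hspa1a: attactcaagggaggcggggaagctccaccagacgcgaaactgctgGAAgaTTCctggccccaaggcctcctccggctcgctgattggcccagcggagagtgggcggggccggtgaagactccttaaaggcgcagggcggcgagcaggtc
Hspa1b: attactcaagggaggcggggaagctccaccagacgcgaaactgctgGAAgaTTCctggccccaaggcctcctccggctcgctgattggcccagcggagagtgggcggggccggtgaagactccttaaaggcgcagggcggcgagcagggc
Hspb1: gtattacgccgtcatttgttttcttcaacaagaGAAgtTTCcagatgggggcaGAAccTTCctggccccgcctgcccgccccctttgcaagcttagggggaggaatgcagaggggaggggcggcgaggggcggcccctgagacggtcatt
Hsph1: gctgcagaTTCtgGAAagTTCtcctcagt
Bag3: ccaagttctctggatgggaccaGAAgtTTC
Hspe1: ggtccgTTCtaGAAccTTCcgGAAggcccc

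The 150 bases before the start of Hspa1a (chr17:34972157-34972306, minus strand) and of Hspa1b (chr17:34959239-34959388, minus strand) were identical at 149 positions, and each held a pair from 104 to 97 bases before the start. Hspb1 (chr5:135887769-135887918, plus strand) held a pair at 117 to 110 and another at 97 to 90 bases before its start. The array of 3 units in Hsph1 (chr5:149636280-149636308, minus strand) lay 16 to 28 bases after one of its annotated starts, and a separate pair, not printed, lay 54 to 47 bases before that start. In Bag3 (chr7:128523603-128523632, plus strand) the pair lay 43 to 50 bases after the start. Hspd1 and Hspe1 lie head to head on chromosome 1 and share 1 array (printed for Hspe1, chr1:55088053-55088082, plus strand), which is 89 to 72 bases before the start of Hspe1 and 144 to 127 bases before a start of Hspd1.

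The 10 members spanned a wide range of levels. Hspa8, the constitutive cytosolic HSP70, was the most abundant, with a mean over the 4 pools of 436 FPKM, and it made up 43.5% to 49.1% of the summed FPKM of the members. It was followed by Hspd1 (HSP60, 177 FPKM), Hsp90aa1 (the inducible cytosolic HSP90, 104 FPKM), Hspb1 (the small heat shock protein HSP25, 69.2 FPKM) and Hspe1 (HSP10, 64.3 FPKM). Below these stood Hspa1b (23.6 FPKM), Bag3 (20.5 FPKM), Dnajb1 (14.1 FPKM), Hsph1 (13.5 FPKM) and Hspa1a (7.02 FPKM). The order changed from pool to pool between the neighbours Hspb1 and Hspe1 and between Hspa1b and Bag3, so it was not resolved within those pairs. Hsph1 was above Dnajb1 in both WT pools and below it in both KO pools, in ranges that overlapped. The ranges of Hsp90aa1 and Hspb1 overlapped, but Hsp90aa1 was the higher of them in each of the 4 pools. The ranges of all other neighbours were separate.

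**Figure D1:**
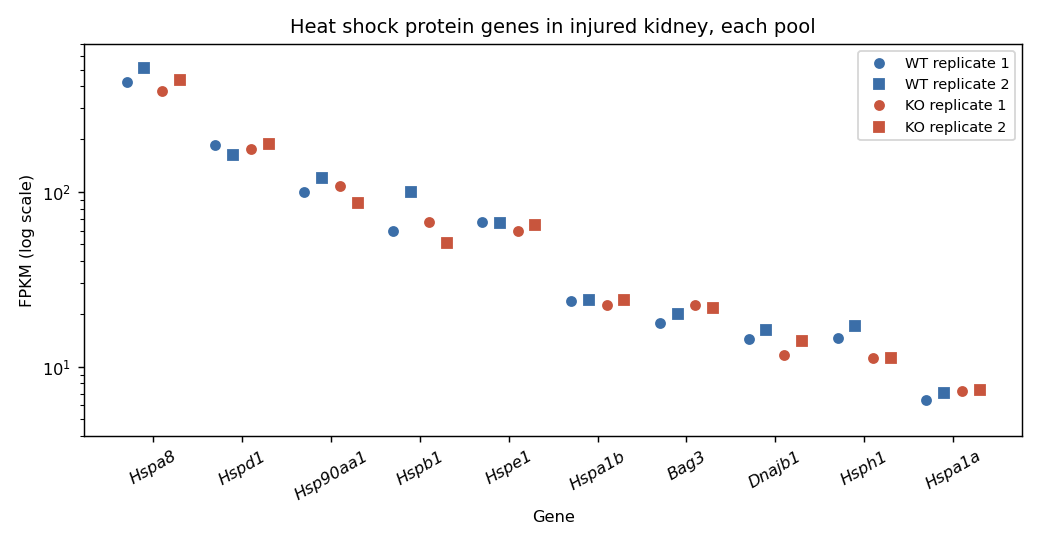
Level of each of the 10 heat shock protein genes in each pool, in FPKM on a log scale, ordered by the mean; circles are replicate 1 and squares replicate 2 of WT (blue) and Apela Ksp KO (red), each a pool of 3 mice. Hspa8 lies at 375 to 513 FPKM and Hspa1a at 6.46 to 7.31 FPKM, and the pools of a gene differ by at most 1.95-fold (Hspb1).

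To ask whether loss of tubular Apela was accompanied by a different chaperone level in the injured kidney, the KO pools were compared with the WT pools. No member passed the threshold, an adjusted p below 0.05 in limma with Benjamini-Hochberg adjustment over all 15414 genes. No gene of the table did either (0.00% called, with a smallest adjusted p of 0.466). Apela, the deleted gene, had a log2 fold change of -2.62 and that same adjusted p of 0.466 in limma. Even a change of that size was not called, so a missing call does not show that a member was unchanged. At an unadjusted p below 0.05, 1 member was lower in KO (Hsph1) and 0 were higher, where 3.03% and 3.29% of all tested genes were lower and higher. The groups did not overlap for 5 members. KO was the higher group in 2 of them (19.7% of all genes tested) and the lower group in 3 (18.1% of all genes tested). After quantile normalization these counts were 2 and 5, beside 18.2% and 18.6% of all genes. Fitted log2 fold changes were above 0 for 3 members and below 0 for 7, with a median of -0.14 beside 0.01 over all genes tested. The median of the members was -0.04 without WT replicate 2, -0.07 without KO replicate 1 and -0.24 after quantile normalization. With 2 pools per group an exact permutation test cannot give a two-sided p below 0.333, and the p-values from limma measure only the spread between pools. In whole kidney RNA, fewer cells that hold a transcript and less transcript per cell cannot be told apart.

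**Figure D2:**
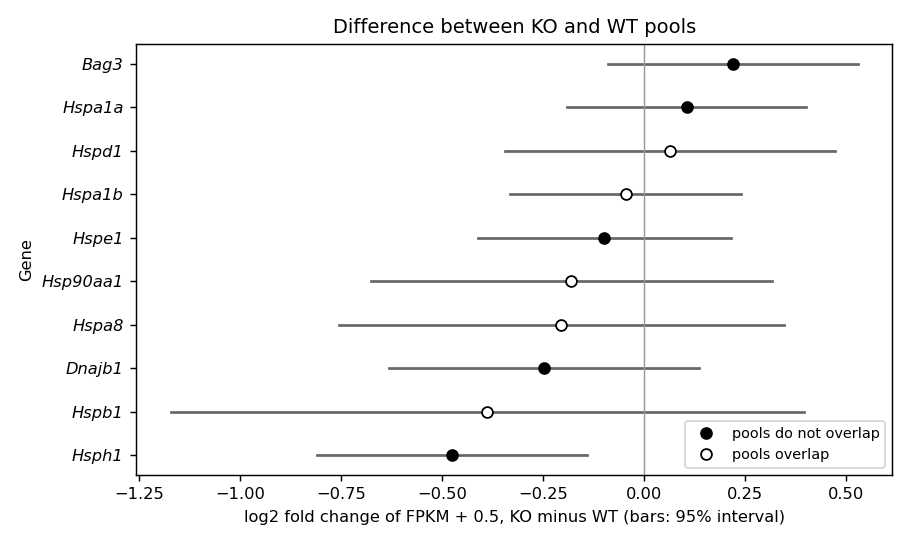
Fitted log2 fold change of FPKM + 0.5 for each member, KO minus WT, with its 95% interval from limma (2 pools per group); filled points mark genes whose WT and KO pools do not overlap. The interval of Hsph1, from -0.81 to -0.14, leaves out 0, and the intervals of the other 9 genes include it.

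The HSP70 machine comprised the inducible pair Hspa1a and Hspa1b, the constitutive Hspa8, the HSP110 protein Hsph1, the J protein Dnajb1 and the exchange factor Bag3. Hsph1, which exchanges nucleotide on HSP70 and takes part in dissolving aggregates, stood at 14.5 and 17.1 FPKM in the WT pools and at 11.2 and 11.2 FPKM in the KO pools. Both KO pools were below both WT pools. These values rest on 1327 to 2141 reads per pool. The KO mean was 0.708 of the WT mean (11.2 ± 0.0410 against 15.8 ± 1.82 FPKM, SD, n = 2 each). The log2 fold change was -0.48 (SE 0.13), with an unadjusted p of 0.0155 and an adjusted p of 0.760 in limma with Benjamini-Hochberg adjustment, at rank 308 of all genes by p. Of all tested genes, 11.5% had a log2 fold change at least as large in size. Omission of WT replicate 2, the pool in which Hsph1 was highest, gave -0.36 and omission of WT replicate 1 gave -0.59. The unadjusted p stayed below 0.05 only when WT replicate 1 was the pool omitted (0.0149), and was 0.0613, 0.0666 and 0.0643 without WT replicate 2, KO replicate 1 and KO replicate 2.

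Dnajb1, the main J protein of the heat shock response, which loads clients on HSP70, was the other cytosolic member with separate and lower KO pools. It stood at 14.3 and 16.3 FPKM in WT and at 11.6 and 14.0 FPKM in KO. The KO pools were both below the WT pools, by a narrow margin between WT replicate 1 and KO replicate 2. The log2 fold change was -0.25 (SE 0.15), with an adjusted p of 0.798 in limma. It ranged from -0.38 without KO replicate 2 to -0.12 without KO replicate 1, and was -0.16 without WT replicate 2.

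Bag3 went the other way. This co-chaperone releases clients from HSP70 and couples the small heat shock proteins to selective autophagy, and it stood at 17.8 and 19.9 FPKM in WT and at 22.5 and 21.6 FPKM in KO. KO was above WT without overlap. The log2 fold change of 0.22 (SE 0.12, 95% interval -0.09 to 0.53) had an adjusted p of 0.798 in limma. It was 0.14 with WT replicate 1 left out.

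Hspa1a and Hspa1b, the 2 classical stress-inducible HSP70 genes, had the smallest fitted differences of this machine. Hspa1a stood at 6.46 and 7.03 FPKM in WT and at 7.27 and 7.31 FPKM in KO, on 308 to 361 reads per pool. Hspa1b stood at 23.8 and 24.1 FPKM in WT and at 22.4 and 24.0 FPKM in KO. The KO pools of Hspa1a were above the WT pools by less than the gap between the WT pools, and those of Hspa1b overlapped with WT. The log2 fold changes were 0.11 (SE 0.11) for Hspa1a and -0.05 (SE 0.11) for Hspa1b, and 82.5% of all tested genes differed by as much as Hspa1b or more. The direction of Hspa1b turned without KO replicate 1 (0.0034), and Hspa1a was 0.05 and 0.16 without WT replicates 1 and 2.

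The 2 genes have 1 coding exon each, of 1923 and 1926 bases, and could have shared reads in the authors' counting. Of the 2918 stretches of 50 bases in the Hspa1a transcript, 1716 (58.8%) also occur in Hspa1b, so the split between them is uncertain. Their sum is less open to that split, although FPKM divides each by its own length. The annotated gene Gm20481 overlaps Hspa1a by 2225 bases and was listed at 0, and how reads there were assigned is not known. Summed, they stood at 30.3 and 31.1 FPKM in WT and at 29.7 and 31.3 FPKM in KO, a log2 fold change of -0.0096 (SE 0.11) with an adjusted p of 0.992 in limma. The 95% interval of the ratio of KO to WT ran from 0.814 to 1.21. The ratio of Hspa1b to Hspa1a lay between 3.08 and 3.69 in the 4 pools.

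Hspa8, which folds and traffics proteins in unstressed cells, stood at 423 and 513 FPKM in WT and at 375 and 435 FPKM in KO. KO replicate 1 was the lowest pool and KO replicate 2 lay between the WT pools, so the groups overlapped. The log2 fold change was -0.20 (SE 0.21), with an adjusted p of 0.870 in limma. It was -0.34 and -0.07 without WT replicates 1 and 2, and -0.10 and -0.31 without KO replicates 1 and 2. Of its 50-base stretches, 52.7% occur in another annotated gene, mostly processed pseudogenes. Those with at least 50 shared stretches reached at most 1.02% of its FPKM in any pool. How reads that match several genes were counted is not known, so this does not bound the effect of sharing.

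Hsp90aa1, which matures kinases and steroid receptors, stood at 99.3 and 121 FPKM in WT and at 108 and 86.0 FPKM in KO. The groups overlapped, and the log2 fold change was -0.18 (SE 0.19) with an adjusted p of 0.873 in limma. It ranged from -0.35 without KO replicate 1 to -0.01 without KO replicate 2, and was -0.32 and -0.04 without WT replicates 1 and 2. Its constitutive partner Hsp90ab1 was more abundant in every pool, at 388 and 490 FPKM in WT and at 409 and 404 FPKM in KO, with a ratio to Hsp90aa1 of 3.77 to 4.70. Hsp90ab1 also overlapped between the groups, at a log2 fold change of -0.10 (SE 0.20).

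Hspb1, a small heat shock protein that holds unfolded clients and stabilizes actin filaments, varied most among the members. It stood at 59.6 and 99.0 FPKM in WT and at 67.6 and 50.8 FPKM in KO. The highest pool was WT replicate 2 and the lowest KO replicate 2, while WT replicate 1 lay between the KO pools. The WT mean was 79.3 ± 27.9 FPKM and the KO mean 59.2 ± 11.8 FPKM (SD, n = 2 each), and the log2 fold change of -0.39 (SE 0.30, 95% interval -1.17 to 0.40) had an adjusted p of 0.839 in limma. The log2 fold change was -0.02 without WT replicate 2, -0.75 without WT replicate 1, and -0.59 and -0.18 without KO replicates 1 and 2. The summed FPKM of 6 macrophage markers was likewise highest in WT replicate 2, at 406 FPKM against 161 in WT replicate 1 and 204 and 199 in the KO pools. The part of macrophages in the level of Hspb1 was not tested.

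The mitochondrial pair consists of the chaperonin HSP60 (Hspd1) and its lid HSP10 (Hspe1). Hspd1 stood at 185 and 162 FPKM in WT and at 175 and 187 FPKM in KO. Hspe1 stood at 66.8 and 66.2 FPKM in WT and at 60.0 and 64.3 FPKM in KO. Both KO pools of Hspe1 were below both WT pools, whereas those of Hspd1 overlapped with WT. The log2 fold changes were 0.06 (SE 0.15, 95% interval -0.34 to 0.47) for Hspd1 and -0.10 (SE 0.12, 95% interval -0.41 to 0.21) for Hspe1, with adjusted p-values of 0.951 and 0.890 in limma. After quantile normalization both genes had separate and lower KO pools, at -0.087 for Hspd1 and -0.20 for Hspe1. The direction of Hspd1 also turned without WT replicate 2 (-0.031), and Hspe1 ranged from -0.15 without KO replicate 2 to -0.05 without KO replicate 1. The ratio of Hspd1 to Hspe1 was 2.44 to 2.92 over the 4 pools. The 2 genes overlap by 112 bases on opposite strands. The library protocol names no strand-marking step, so how reads in that stretch were assigned is not known.

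Several members share sequence with annotated copies. Of the 50-base stretches, 44.8% of Hspd1, 51.6% of Hspb1, 58.5% of Hsp90aa1 and 8.20% of Hspe1 occur in another annotated gene. Of 10 annotated pseudogenes named for Hspd1 or Hspe1, 4 were listed at 0 in every pool, and Hspd1-ps3 stood at 8.65 to 10.6 FPKM, at most 6.05% of Hspd1. The other 5 did not exceed 0.440 FPKM in any pool. The copies of Hspb1 and Hsp90aa1 with at least 50 shared stretches reached at most 0.829% and 3.84% of the member's FPKM in any pool. For these genes too, low values of the copies do not bound the effect of sharing. Hsph1 and Bag3 shared no 50-base stretch with another annotated gene.

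The members differed in which pool stood apart. WT replicate 2 was the highest pool for 6 members (Hspa1b, Hspa8, Hsph1, Hspb1, Hsp90aa1 and Dnajb1), where 29.1% of all tested genes were highest in it and 30.7% lowest. KO replicate 1 was the lowest pool for 5 members (Hspa1b, Hspa8, Hsph1, Dnajb1 and Hspe1), where 23.3% of all tested genes were lowest in it. The summed FPKM of the members was 910 and 1044 in WT and 861 and 901 in KO, and the members took 0.288% to 0.388% of the reads on genes. Both KO sums were below both WT sums, and Hspa8, the largest single term, overlapped between the groups. The 6 tubular injury markers did not move as 1 group. Their summed FPKM was 1067 and 1352 in WT and 1303 and 984 in KO, and most of it came from Clu and Havcr1, which were highest in WT replicate 2. Lcn2, which encodes the injury marker NGAL, stood at 133 and 95.2 FPKM in WT and at 249 and 273 FPKM in KO, and Krt20 at 35.6 and 36.8 FPKM in WT and at 60.0 and 61.0 FPKM in KO, both with separate and higher KO pools. Vcam1 had separate and lower KO pools. The part of tubular injury in the heat shock values was not tested.

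**Figure D3:**
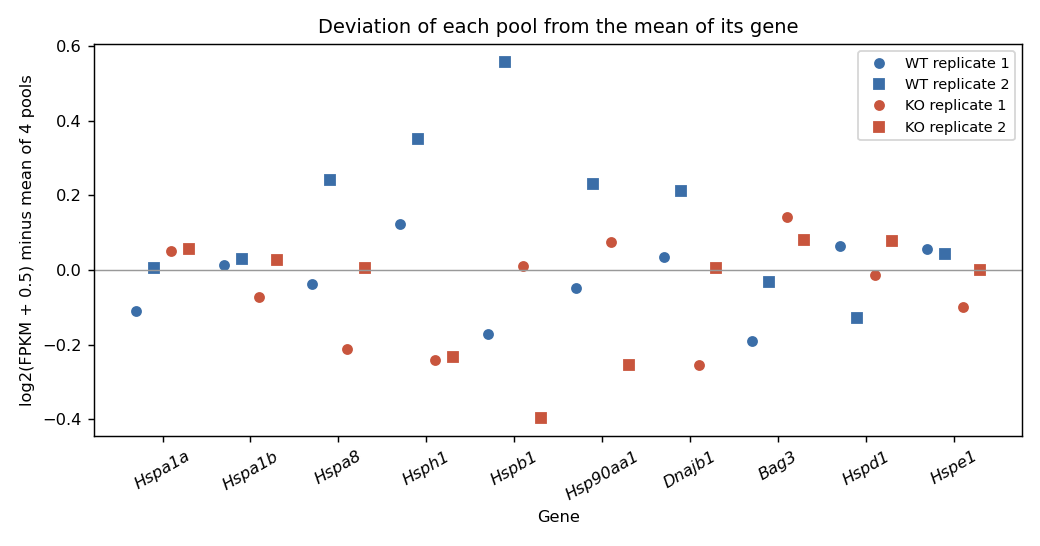
Deviation of log2(FPKM + 0.5) in each pool from the mean of the 4 pools, for each member; circles are replicate 1 and squares replicate 2 of WT (blue) and KO (red). WT replicate 2 lies farthest above the mean for Hspb1 (0.56), and the KO pools of Hsph1 sit together at -0.24 and -0.23.

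Distances were taken between log2(FPKM + 0.5) profiles centred over the 4 pools. Among 13231 other genes with a name and a mean of at least 1 FPKM, the closest to each member was never another member. With so few members among them, this alone says little. Of the pairs of members that were each other's nearest member, Hspa1b and Hspe1 had the smallest distance (0.0572, at ranks 151 and 111), and both varied little over the pools. Hspa8 and Dnajb1 (0.0883) had the lowest ranks, 63 and 49, and Hspa1a and Bag3 (0.129) followed at ranks 1070 and 333. Hsp90aa1 and Hspd1 had their nearest members at ranks 4251 (Hspe1, 0.376) and 2128 (Hspa1b, 0.183). These distances exceeded the spread of Hsp90aa1 (0.355) and of Hspd1 (0.163) around their own means. The nearest member to Hsph1 was Dnajb1 at rank 628 (0.291), while the closest genes of all were 1700030K09Rik (0.0536), Cfb (0.0563) and Tbc1d19 (0.0638). Cfb encodes complement factor B. For Hspb1 the closest genes were Sh3pxd2b (0.0473), Mxra8 (0.0486) and Car13 (0.0714), and the nearest member was Hsp90aa1 at rank 459. These distances describe 4 pools only.

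The rest of the chaperone network was described from 9 lists of 83 genes, of which 77 passed the filter. These lists were written with earlier results of these data known. Their shares beside those of all genes are therefore descriptive only. None of the 77 was called. In the lists together, the KO pools lay wholly above WT for 11 genes (14.3%, against 19.7% of all genes) and wholly below for 21 (27.3%, against 18.1%), with a median log2 fold change of -0.05. At an unadjusted p below 0.05, 2 of the 77 were higher in KO (Fkbp5 and Grpel1) and 2 lower (Chordc1 and Dnaja1), beside 3.29% and 3.03% of all genes tested, so both counts lie near the share over all genes.

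HSP90 and its co-chaperones held the most genes with separate pools. KO pools were lower for 8 of 12 (66.7%, against 18.1% of all genes; Stip1, Ahsa1, Ptges3, Fkbp4, Ppid, Chordc1, Sugt1 and Cacybp) and higher for 1 (8.33%, against 19.7%; Fkbp5), with a median log2 fold change of -0.19. Chordc1, a co-chaperone with zinc-binding CHORD domains, stood at 6.79 and 7.05 FPKM in WT and at 4.97 and 4.45 FPKM in KO, a log2 fold change of -0.51 (SE 0.12) with an adjusted p of 0.716 in limma. Fkbp5, an HSP90-bound immunophilin and a well-known glucocorticoid target, stood at 44.2 and 24.9 FPKM in WT and at 72.6 and 58.9 FPKM in KO, a log2 fold change of 0.97 (SE 0.31) with an adjusted p of 0.785 in limma. Both genes had separate pools, in opposite directions. For Fkbp5, WT replicate 1 lay closer to KO replicate 2 than to WT replicate 2. Omission of WT replicate 2 brought the median of the list to -0.10, and omission of WT replicate 1 to -0.31.

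Among the other partners of HSP70, the J proteins of the cytosol had lower KO pools for 4 of 9 (44.4%, against 18.1% of all genes) and higher for 0 (median -0.06, or -0.11 without WT replicate 2). Dnaja1, a farnesylated J protein, stood at 22.0 and 21.6 FPKM in WT and at 16.5 and 18.2 FPKM in KO, with an adjusted p of 0.785 in limma. The second gene named there by size, Dnajb6, had a log2 fold change of -0.14. The other HSP70 and HSP110 genes had lower KO pools for 2 of 6 (33.3%), Hspa2 (-0.32) and Hspa4 (-0.17), and higher for 1 (16.7%; median -0.14, or -0.05 without WT replicate 2). The nucleotide exchange factors other than Bag3, with the ubiquitin ligase CHIP, had higher KO pools for 3 of 8 (37.5%, against 19.7% of all genes) and lower for 0 (median 0.11, or 0.05 without KO replicate 1 and 0.04 after quantile normalization). Their largest separate differences were Bag2 (0.25) and Bag1 (0.20), neither called.

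The heat shock factors themselves were low. Hsf1, the regulator of the inducible members, stood at 4.61 and 5.58 FPKM in WT and at 4.93 and 4.44 FPKM in KO and overlapped between the groups. In the list, which also holds the gene Hsbp1, KO pools were higher for 2 of 4 (50%, against 19.7% of all genes). They were lower for 0 (against 18.1%). The 2 were Hsf4 (0.47, on 15 to 33 reads per pool) and Hsbp1 (0.12). Hsbp1 encodes a small protein that binds HSF1, is not itself a factor, and stood at 70.6 to 80.0 FPKM. Hsf1 (-0.10) and Hsf2 (-0.13) had pools that overlapped. The median of the list was 0.01 and turned to -0.04 after quantile normalization, with 1 gene higher, and to -0.01 without KO replicate 1. It was 0.050 and 0.055 without WT replicates 1 and 2, and 0.022 without KO replicate 2. The small heat shock proteins other than Hspb1 had the highest median, 0.45, with higher KO pools for 2 of 6 (33.3%, against 19.7% of all genes), Hspb7 (0.57) and Hspb2 (0.38), both below 3 FPKM. Cryab, which encodes alpha-B crystallin and was the most abundant of the list, had separate and lower KO pools, at 124 and 135 FPKM in WT and at 121 and 104 FPKM in KO (-0.21). That median was 0.15 without KO replicate 2, 0.29 without KO replicate 1, and 0.70 and 0.20 without WT replicates 1 and 2. Muscle is another tissue in which these genes are known. Acta2, of smooth muscle, carried most of the summed FPKM of 6 muscle markers (50.4 and 111 in WT, 69.3 and 136 in KO), whereas Acta1, of skeletal muscle, stood at 0.446 and 0.984 FPKM in WT and at 0.311 and 0.160 FPKM in KO. Their part was not tested.

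The other mitochondrial chaperones and proteases had higher KO pools for 2 of 12 and lower for 2 (16.7% each, near the 19.7% and 18.1% of all genes), with a median of 0.07 that turned to -0.01 after quantile normalization and to -0.03 without WT replicate 2. It was 0.17 when WT replicate 1 was left out, and 0.13 and 0.016 when KO replicates 1 and 2 were. Hspa9, the matrix HSP70 that works upstream of HSP60, stood at 167 and 151 FPKM in WT and at 147 and 177 FPKM in KO. Trap1, the matrix HSP90, stood at 89.5 and 83.5 FPKM in WT and at 87.8 and 81.8 FPKM in KO. Both overlapped between the groups. Grpel1, the exchange factor of Hspa9, stood at 26.3 and 20.8 FPKM in WT and at 35.5 and 31.6 FPKM in KO, a log2 fold change of 0.51 (SE 0.16) with an adjusted p of 0.785 in limma, and Lonp1, a matrix protease, differed by -0.21.

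The TRiC chaperonin, which folds actin and tubulin, had no separate pools in any of its 8 subunits (median -0.05). After quantile normalization 3 subunits had lower KO pools, beside 18.6% of all genes, and the median was -0.14. It was -0.087 without WT replicate 1 and turned to 0.0064 without WT replicate 2. The ER chaperones, included as a compartment with a separate stress response, had lower KO pools for 4 of 12 (33.3%, against 18.1% of all genes) and higher for 0 (median -0.17). The median was -0.32 when KO replicate 1 was left out and -0.03 when KO replicate 2 was left out. Hspa5, the ER HSP70, stood at 142 and 156 FPKM in WT and at 128 and 110 FPKM in KO, a log2 fold change of -0.32 (SE 0.15) with an adjusted p of 0.797 in limma. Calr, the ER lectin chaperone calreticulin, differed by -0.29.

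**Figure D4:**
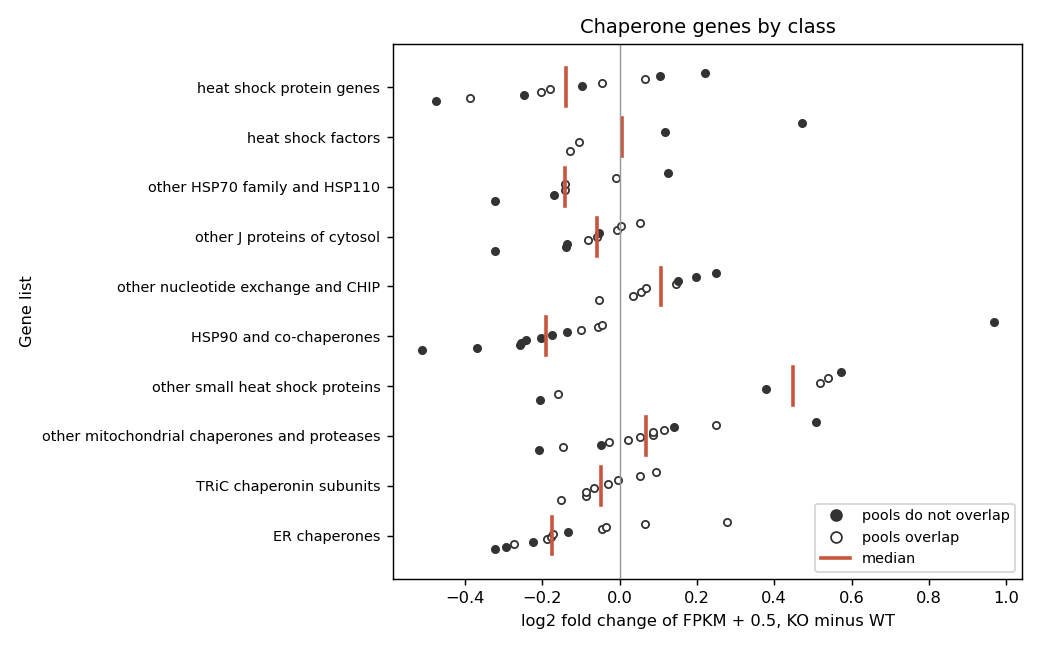
Fitted log2 fold change of FPKM + 0.5, KO minus WT, for each tested gene of the 10 heat shock protein genes and of 9 further chaperone lists; filled points mark genes whose pools do not overlap and red bars the median of each list. The HSP90 list has 8 filled points below 0, and Fkbp5, at 0.97, stands at the far right of the plot.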

How the data were processed

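Poly(A) RNA from injured kidney was sequenced in 4 libraries, 2 WT and 2 Apela Ksp KO, each a pool of 3 mice. The authors gave their values as FPKM, in 1 deposited table that holds all 4 libraries. The submitters' processing notes name HISAT2 2.0.5 and the builds mm10 and GRCm38.p6, and the counting tool is not given in the sources used here. Gene positions were identical to GENCODE M21 for 97.1% of the 53620 genes found in both. FPKM times gene length and a constant for each library gave whole reads for 100% of values, within 0.01 of a read. These recovered reads were used for depth and for voom weights. The constants did not follow the reads on genes of the pools, and how they were set is not known.

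The groups were compared with limma 3.58.1 (R 4.3.3; trend, no covariates, two-sided) on log2(FPKM + 0.5). Genes whose mean over the 4 libraries was under 0.5 FPKM were left out, and p-values were adjusted over the other 15414 by the Benjamini-Hochberg method. Fold changes are on the log2(FPKM + 0.5) scale, which understates the change of low genes. Replicates are pools whose labels name separate samples. The code was tested on simulated data. Other pseudocounts, filters, normalization, voom weights, a replicate block, omission of each pool and the sum of Hspa1a and Hspa1b were tried. Figures were drawn with matplotlib 3.10.9 in Python 3.11.15.

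The members and the gene lists were chosen with earlier results of these data known. Named genes were all members, Apela, Hsf1, Hsp90ab1, Hspa9, Trap1 and Hspa5, the 2 genes of each list with the largest difference among those with separate pools, the 3 nearest profiles of each member (given for Hsph1 and Hspb1), and copies of members. The other HSP90 co-chaperones, Adipoq, Ucp1, Cidec, Clu, Havcr1, Lcn2, Krt20, Vcam1, Fabp4, Plin1, Lep, Acta2 and Acta1 were named after their values were seen. Cryab, Lrp2, Slc34a1 and Cdh16 were too. All of these but the co-chaperones and Cryab come from marker lists for kidney tubule, tubular injury, adipose, macrophage, endothelial and muscle cells. The summed FPKM of 5 endothelial markers was 44.4 and 57.2 in WT and 53.1 and 66.8 in KO. Motifs were searched in RefSeq promoter windows.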

Additional observations from a re-analysis of the deposited data

How the results depend on the processing

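No gene was called under any of the 13 alternatives, with 687 to 1720 genes at an unadjusted p below 0.05 (974 in the reported fit). Of these, 5 leave a fold change as it is by construction. Under the other 8, 77 of the members' 80 log2 fold changes kept their direction and 3 did not, and 8 of the 10 members kept it throughout. The other pseudocounts and voom weights barely moved these fold changes. All 3 reversals came from quantile normalization or omission of a pool. The lowest adjusted p of any member was 0.361 (Hsph1, limma). Hspd1 was -0.087 after quantile normalization and ran from -0.031 to 0.16 when each pool was left out, and Hspa1b ran from -0.094 to 0.0034. The median over the members was -0.24 after quantile normalization, with 5 members whose KO pools were lower instead of 3 (Hspa1b and Hspd1 joined them), and ran from -0.21 without WT replicate 1 to -0.039 without WT replicate 2. The cause was not tested. With 3 pools left, the lone pool is assumed to vary like the others. Leaving out each pool for the medians of the chaperone lists was chosen after seeing the data.

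With the replicate number as a replicate block, 0 genes were called and 932 had an unadjusted p below 0.05. Deviations of same-numbered pools had a correlation of -0.0017 over all genes tested. A single correlation cannot show whether these pools shared a batch, which was not tested.

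Members had 308 reads or more per pool. The pools of a group differed by more than the 95% counting interval of their ratio for 7 members in WT and for 5 in KO. For Hspa1a, Hspa1b and Hspe1 they did not in either group, so depth limits those comparisons too.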
